A study of Homo sapiens with 24 samples.

Results

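SW620 cells sorted for high aldehyde dehydrogenase (ALDH) activity in the nifuroxazide (NIF) condition were compared with SW620 cells of that condition in which the activity was low. The members were chosen from the sample labels alone, as the 3 ALDHbr and the 3 ALDHneg libraries of the NIF condition, which are 6 of the 24 libraries of the series. SW620 is an established human colon cancer line. Adherent cells were exposed to the nitrofuran antibiotic NIF for 30 h. Staining with the ALDEFLUOR reagent was used to sort ALDHbr cells, labelled as cancer stem cells, and ALDHneg cells. RNA of each sorted population was sequenced from 3 independent experiments. Both groups carried the drug. The paper's methods do not spell out the order of sort and treatment, and the sort is taken here to have come after the drug. On that reading the values describe the populations as they stood at the end of treatment. The ALDHbr and ALDHneg populations under the DMSO vehicle again had 3 libraries each. They served as the comparison where a difference under NIF was set beside a difference without it. The other 12 libraries came from a breast cancer line and entered 1 alternative fit.

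ALDHs oxidise aldehydes to carboxylic acids, and the ALDH1A enzymes make retinoic acid from retinal. The ALDEFLUOR reagent is an aldehyde whose fluorescent product stays inside cells with active enzyme, so the gate reads activity and not the RNA of any single gene. In the intestine, stem cells at the crypt base depend on Wnt signals and carry the receptor LGR5, and their descendants become absorptive or secretory cells.

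The totals ran from 31259948 to 36119939 counts in the ALDHbr libraries and from 38032476 to 40375463 in the ALDHneg libraries. The label of a colon epithelial line held for most of its markers: EPCAM ran from 592 to 725 CPM (counts scaled to library size) and KRT20 from 552 to 693 CPM, while the intestinal factors CDX1 and CDX2 stayed below 1 CPM. The collagen gene COL1A2, the leukocyte gene PTPRC and SPARC had no count in any of the 6 libraries. The ALDHbr libraries were less alike than the ALDHneg libraries. The median absolute log2 difference of a library from the other replicates of its group was 0.140, 0.0643 and 0.152 in ALDHbr replicates 1, 2 and 3, against 0.0607 to 0.0808 in ALDHneg cells. This spread moved with transcript length. Among the fifth of genes with the longest transcripts (5604 to 37852 bases), the median log2 CPM lay 0.25 below the ALDHneg mean in ALDHbr replicate 3, 0.09 below it in replicate 2 and 0.01 below it in replicate 1. Among the fifth with the shortest transcripts, replicate 3 lay 0.19 above the ALDHneg mean. The NIF comparison and the test of NIF against DMSO were therefore also run with an offset for transcript length per library, which was chosen after these values were seen.

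Under NIF, 1009 of 13563 genes tested (7.44%) differed between ALDHbr and ALDHneg cells by edgeR's quasi-likelihood test at an adjusted p below 0.05. Of these, 479 genes (3.53%) were higher and 530 (3.91%) were lower in ALDHbr cells. Most differences were small: the median absolute log2 fold change of the called genes was 0.405, and 120 of them reached an absolute value of 1, 62 higher and 58 lower. The 6 libraries separated without overlap for each of the 1009 called genes, and for 4125 of all genes tested (30.4%). With the length offset 2072 genes (15.3%) passed, 1014 higher (7.48%) and 1058 lower (7.8%), and 974 of the 1009 were among them. Library-size scaling in place of TMM normalization gave 604 higher and 420 lower genes, so the balance of directions depended on the scaling. Single libraries moved the count as well: it was 2976 without ALDHbr replicate 1 and 1683 without ALDHbr replicate 3. Without replicate 1 it held 1327 higher (9.66%) and 1649 lower genes of 13735 tested. It lay between 392 and 428 without ALDHbr replicate 2 or any ALDHneg library. List counts below moved with it, and for most lists their values without some of those libraries are given beside them. In RNA of sorted populations, fewer cells of a type and less RNA per cell cannot be told apart.

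**Figure D1:**
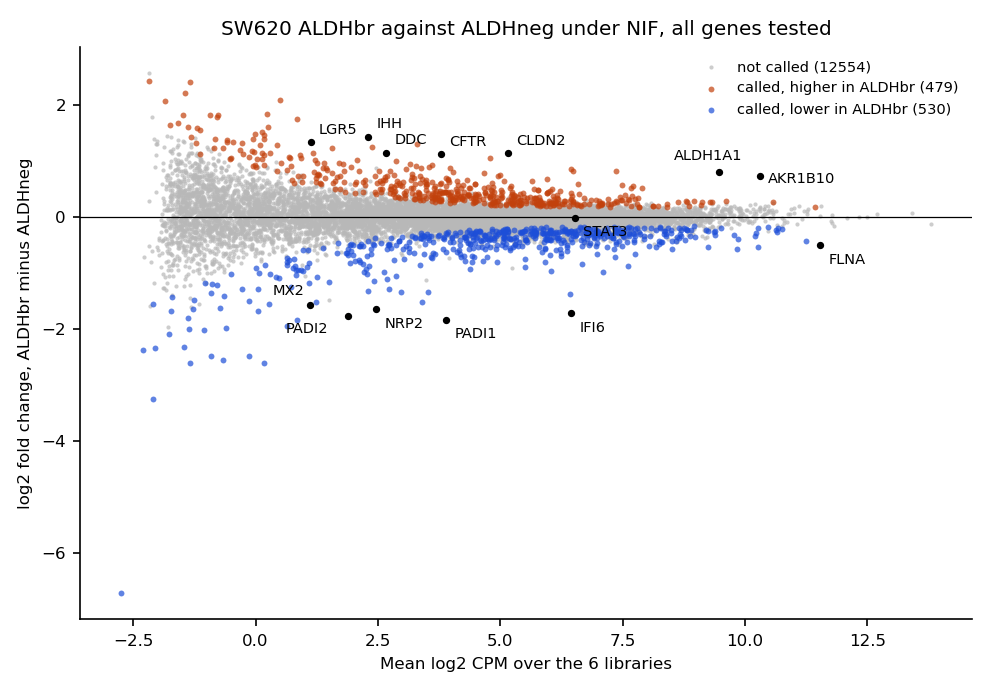
Each point is a gene tested, with the mean log2 CPM over the 6 SW620 NIF libraries on the x axis and the log2 fold change of ALDHbr over ALDHneg cells on the y axis. The 479 genes called higher and the 530 called lower are coloured, and the genes with the greatest CPM among them, such as FLNA, ALDH1A1 and AKR1B10, lie within 1 log2 unit of 0.

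ALDH1A1, which oxidises retinal and is the enzyme most often tied to the ALDEFLUOR signal, was measured at 903, 954 and 960 CPM in the ALDHbr libraries. The ALDHneg libraries held 546, 524 and 553 CPM. The groups did not overlap, and the log2 fold change was 0.79 (SE 0.0459, edgeR adjusted p = 2.77e-05). The gene lies at chr9:72900671-72953053 (GRCh38.p14). Its RNA was thus present in ALDHneg cells at more than 500 CPM. ALDH3A1, which clears aldehydes made by lipid peroxidation, gave 227, 237 and 262 CPM against 167, 177 and 167 CPM, a log2 fold change of 0.51 (SE 0.0596, edgeR adjusted p = 0.00097). Every ALDHbr library again lay above every ALDHneg library. The mitochondrial enzymes ALDH18A1, of proline synthesis, and ALDH2, which oxidises acetaldehyde, were higher by 0.27 and 0.21 on the log2 scale. ALDH3B1 was lower, with a log2 fold change of -0.25. Of 15 ALDH genes tested, 4 were called higher and 1 lower, and the median log2 fold change was 0.17 beside 0.006 over all genes. Without ALDHbr replicate 2 or any 1 ALDHneg library 2 or 3 were higher and none lower, and 8 were higher without ALDHbr replicate 3. ALDH2 lost its call under 6 alternatives, ALDH3B1 under 5, ALDH18A1 under 3, ALDH3A1 under 1 (the fit of 24 libraries) and ALDH1A1 under none. The other 10 did not pass, among them ALDH1A3, another retinal oxidising enzyme, at 48.7 ± 2.24 CPM in ALDHbr and 47.1 ± 2.24 CPM in ALDHneg cells (SD, n = 3). In the retinoid list, 1 of 13 genes was higher and 3 were lower. The lower genes were DHRS9, a retinol dehydrogenase (-0.47), the retinoic acid receptor RARG (-0.26) and STRA6, which takes up retinol (-0.76). FABP5, a carrier of fatty acids and retinoic acid, was higher by 0.26. This list fell to none higher and 1 to 3 lower without ALDHbr replicate 2 or any 1 ALDHneg library.

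**Figure D2:**
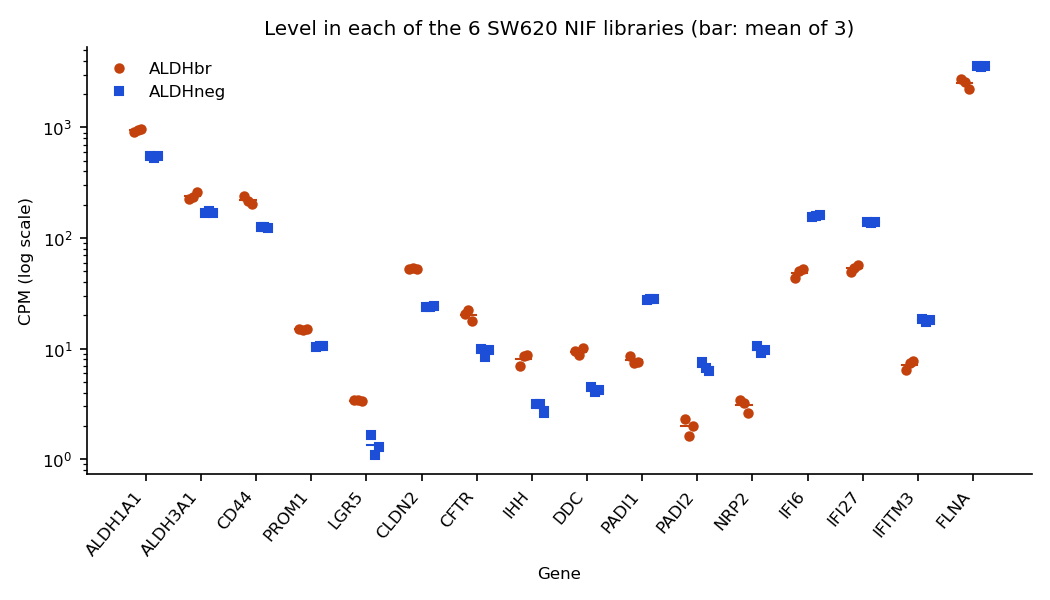
CPM of 16 genes in each of the 6 SW620 NIF libraries, on a log axis, with circles for ALDHbr, squares for ALDHneg and a bar at the mean of 3. The 2 groups are apart for every gene drawn, as they are for all 1009 called genes. The gap is less than 2-fold for ALDH1A1 and FLNA and more than 3-fold for PADI1, PADI2, NRP2 and IFI6.

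The interferon response was the list that had the lowest median in ALDHbr cells among lists with more than 3 genes tested. These genes are switched on by interferon or by nucleic acid sensors through transcription factors of the STAT and IRF families, and their products block viral replication. Of 42 genes tested, 30 were called lower and none higher, against 3.91% called lower over all genes. The median log2 fold change was -0.48, and 40 of the 42 estimates were below 0. The summed level of the list was 1550, 1565 and 1537 CPM in the ALDHbr libraries and 2149, 2132 and 2160 CPM in the ALDHneg libraries. With the length offset 33 were called lower, with the same median, and with any 1 library left out between 20 and 33 were. Of these factors, IRF9 had a log2 fold change of -0.86 and was called, while STAT2 did not pass (-0.22, edgeR adjusted p = 0.138). IRF1 and IFITM2, the 2 members above 0, did not pass, at 0.08 and 0.27.

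IFI6, a small membrane protein induced by interferon, gave 43.1, 49.9 and 52.1 CPM in ALDHbr cells. It gave 155, 160 and 161 CPM in ALDHneg cells, and the log2 fold change was -1.71 (SE 0.0703, edgeR adjusted p = 2.48e-06). The lowest ALDHneg library thus held about 3 times the CPM of the highest ALDHbr library. IFI27, a related gene, gave 49.8, 53.6 and 57.0 CPM against 139, 138 and 141 CPM, a log2 fold change of -1.38. IFITM3, which keeps viruses from leaving endosomes, gave 6.38, 7.45 and 7.70 CPM against 18.5, 17.6 and 18.3 CPM, a log2 fold change of -1.34. For both, the groups were apart by more than their whole spread. MX2 and OAS2, an antiviral GTPase and a sensor of double-stranded RNA, had log2 fold changes of -1.57 and -1.29. Outside the list, NLRC5, which switches on the HLA class I genes, was at -1.34. ISG15, a protein joined to others like ubiquitin, had a smaller log2 fold change of -0.51. IFI44L and TRIM22 had the lowest log2 fold changes of the list, -2.61 and -3.25, but TRIM22 stayed below 1 CPM in all 6 libraries.

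The promoters of IFI6, IFI27 and IFITM3, the members given above with their values in every library, are shown because a known interferon element recurs in them. Each line holds the 250 bases before an annotated transcript start, the first listed for the gene, 5′ to 3′ on the gene's strand, from RefSeq (GRCh38.p14). IFI6 is at chr1:27672193-27672442 on the minus strand, IFI27 at chr14:94110486-94110735 on the plus strand and IFITM3 at chr11:320861-321110 on the minus strand. The IFI27 window lies inside the full span of the gene, chr14:94105894-94116690, whose transcripts have more than 1 start. Capitals mark matches, on either strand, to GAAA, any 2 bases and GAAA again, the core of the interferon-stimulated response element.
IFI6: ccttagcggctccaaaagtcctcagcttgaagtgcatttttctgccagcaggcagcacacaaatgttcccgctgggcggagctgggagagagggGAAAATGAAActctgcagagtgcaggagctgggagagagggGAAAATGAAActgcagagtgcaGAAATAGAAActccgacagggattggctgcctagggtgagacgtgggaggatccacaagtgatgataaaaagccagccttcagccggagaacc
IFI27: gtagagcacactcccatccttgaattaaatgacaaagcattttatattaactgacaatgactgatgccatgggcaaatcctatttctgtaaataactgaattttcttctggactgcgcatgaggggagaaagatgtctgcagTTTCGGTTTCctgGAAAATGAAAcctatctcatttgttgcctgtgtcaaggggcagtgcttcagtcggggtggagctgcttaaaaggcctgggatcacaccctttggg
IFITM3: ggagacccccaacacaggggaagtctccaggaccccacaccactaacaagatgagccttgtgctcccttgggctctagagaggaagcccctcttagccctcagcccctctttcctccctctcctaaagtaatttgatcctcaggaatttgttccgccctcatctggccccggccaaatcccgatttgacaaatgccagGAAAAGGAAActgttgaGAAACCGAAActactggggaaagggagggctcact

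IFI6 had 3 matches, and IFI27 and IFITM3 had 2 each. Of the 33 interferon genes matched to a promoter, 20 (60.6%) held at least 1 match, against 2.29% of 10658 promoters of all genes tested. Matches were found in 6.84% of the promoters of genes called lower, in 1.35% of those called higher, and in 2.97% of those called lower outside the interferon list. Within the list, 16 of 20 members with a match and 9 of 13 without one were called lower. The STAT element, TTC, any 3 bases and GAA, was found in 27.3% of the interferon promoters, 5.5% of all tested, 4.81% of those called lower and 1.62% of those called higher. These matches describe letters in the window and do not show binding.

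Among called genes above the minimum level set for naming (a mean log2 CPM of 1), the lowest fold change was that of PADI1, a peptidylarginine deiminase that turns arginine in proteins into citrulline. PADI1 gave 8.53, 7.45 and 7.54 CPM in ALDHbr cells and 27.6, 28.1 and 28.3 CPM in ALDHneg cells. The log2 fold change was -1.83 (SE 0.0727, edgeR adjusted p = 2.48e-06). PADI2, its neighbour on chromosome 1, gave 2.31, 1.62 and 2.01 CPM against 7.52, 6.69 and 6.26 CPM, a log2 fold change of -1.77. The groups of both genes were far apart. NRP2, a co-receptor for semaphorins and VEGF, followed at 3.45, 3.25 and 2.63 CPM against 10.5, 9.08 and 9.67 CPM (-1.64). SPRR1B, a cornified envelope protein, and the gastric mucin MUC5AC both had a log2 fold change of -1.52. ZNF469 was at -1.32, with the most uneven ALDHbr values of this group, 3.83, 3.63 and 1.98 CPM. MUC5AC stayed at or below 4.23 CPM in all libraries, so its level rests on few reads.

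On the side of higher genes, IHH, the hedgehog ligand of the gut epithelium, gave 6.90, 8.56 and 8.69 CPM in ALDHbr cells. It gave 3.18, 3.17 and 2.60 CPM in ALDHneg cells, and the log2 fold change was 1.43 (SE 0.13, edgeR adjusted p = 0.000279). LGR5, the R-spondin receptor of crypt stem cells, gave 3.40, 3.41 and 3.37 CPM against 1.64, 1.10 and 1.30 CPM, a log2 fold change of 1.33 (SE 0.161, edgeR adjusted p = 0.00117). Both genes were low in CPM, and in neither did the groups overlap. CLDN2, a claudin that makes tight junctions leaky to cations, was more abundant. It gave 52.5, 53.4 and 52.1 CPM in ALDHbr cells and 23.7, 23.9 and 24.3 CPM in ALDHneg cells, with a log2 fold change of 1.14 (SE 0.0513, edgeR adjusted p = 4.02e-06). CFTR, the chloride channel of crypt cells, gave 20.8, 22.1 and 17.8 CPM against 9.87, 8.41 and 9.74 CPM (1.12). TXNIP, which binds thioredoxin and restrains glucose uptake, gave 40.9, 38.3 and 40.7 CPM against 18.2, 19.4 and 20.4 CPM (1.05). In each of these genes the lowest ALDHbr library lay well above the highest ALDHneg library, and no overlap was a condition for naming them. The remaining higher genes chosen by size were the NAD synthesis enzyme QPRT (1.30), the mannosidase MAN1A1 (1.25), the phosphatase inhibitor PPP1R1B (1.22), the aromatic amino acid decarboxylase DDC (1.15) and the octamer factor POU2F2 (1.14). SBSPON and PRAP1 had log2 fold changes of 1.02 and 1.01.

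Stem cell surface genes did not move as a block. Of 16 tested, 6 were called higher and 3 lower, with a median log2 fold change of 0.21. CD44, the hyaluronan receptor, gave 240, 216 and 204 CPM against 126, 126 and 125 CPM, a log2 fold change of 0.81 (SE 0.0615, edgeR adjusted p = 0.000119). CD24 (0.55), PROM1, which encodes CD133 (0.51), the chemokine receptor CXCR4 (0.40), the efflux pump ABCG2 (0.40) and MYC (0.18) were also higher. ALCAM, or CD166, went the other way, with 18.9, 16.4 and 13.8 CPM against 29.6, 27.5 and 28.6 CPM (-0.80). The integrins ITGA6 and ITGB1 were lower too, at -0.32 and -0.19. Among 22 Wnt targets and intestinal stem cell genes, 5 were higher and 3 lower. The higher ones were LGR5, its relative LGR4 (0.43), the crypt stem cell factor ASCL2 (0.71), the Wnt target factor SP5 (0.66) and LRIG1 (0.32). CCND1, which encodes cyclin D1, had 224, 220 and 215 CPM against 319, 314 and 311 CPM (-0.52), and EPHB2 (-0.47) and the Wnt inhibitor DKK1 (-0.24) were lower as well. Of 15 Notch pathway genes, the ligand DLL4 (0.93), HES6 (0.82) and NRARP (0.37) were higher and the ligand JAG1 (-0.30) was lower. Without ALDHbr replicate 2 or any 1 ALDHneg library the stem cell list held 4 higher and 1 or 2 lower, the Wnt list 2 or 3 higher and 2 lower, and the Notch list 1 or 2 higher and at most 1 lower. Without ALDHbr replicate 1 the Wnt list held 7 of each, where 1327 of 13735 genes were higher and 1649 lower.

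Absorptive colon genes were higher for 7 of 19 tested and lower for 2. HNF4A, a factor that sets epithelial identity, gave 79.1, 80.8 and 76.0 CPM against 49.4, 46.9 and 51.2 CPM, a log2 fold change of 0.68 (SE 0.0542, edgeR adjusted p = 0.000148). MUC13, a mucin of the cell surface (0.63), LGALS4 (0.27), KRT20 (0.26) and VIL1, of the brush border (0.23), were among the others. CDX2 had the greatest log2 fold change of the list, 1.55, at 0.696 ± 0.222 CPM against 0.237 ± 0.0586 CPM (SD, n = 3), so that it stayed below 1 CPM in both groups. The adhesion proteins CEACAM5 and CEACAM6 were lower, at -0.59 and -0.69. Of 13 secretory genes, 3 were higher: AGR2, a disulfide isomerase of mucus cells (0.57), TFF3 (1.39) and FCGBP (1.10), the last 2 below 2 CPM. Without any 1 ALDHneg library 4 absorptive genes were higher, and without ALDHbr replicate 2 the counts were 6 absorptive and 1 secretory, with 5 secretory genes higher without ALDHbr replicate 1. Markers of other cell types gave little. Of 8 mesenchymal genes tested 1 was higher (TAGLN, 0.75) and 1 lower (FN1, -2.61, below 1 CPM), and their summed level was 337 to 430 CPM in ALDHbr and 449 to 455 CPM in ALDHneg cells. Of 21 genes in that list 5 had no count in any of the 6 libraries, and none of the 3 blood and endothelial genes tested passed. Their part in the differences was not tested.

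STAT3, the transcription factor that NIF is known to inhibit, and the Fanconi anemia genes of crosslink repair were compared next. STAT3 gave 96.0, 95.2 and 83.7 CPM in ALDHbr cells and 94.6, 89.9 and 93.4 CPM in ALDHneg cells, and the groups overlapped. The log2 fold change of -0.02 did not pass (edgeR adjusted p = 0.903), and it turned to 0.03 with the length offset. FANCI gave 182, 181 and 163 CPM against 191, 189 and 202 CPM (-0.15, edgeR adjusted p = 0.15). FANCD2, its partner in the repair of crosslinks, gave 35.5, 36.1 and 30.0 CPM against 37.3, 34.2 and 37.2 CPM (-0.10, edgeR adjusted p = 0.463). None of 30 Fanconi anemia genes passed, with a median of -0.05, but 4 were called lower with the length offset, and 2 higher and 7 lower without ALDHbr replicate 1. Over all 13735 genes tested, the fit without that library called 1327 higher (9.66%) and 1649 lower. In the STAT3 pathway list 4 of 49 genes were higher and 8 lower, with a median of -0.05. The feedback inhibitors SOCS3 and SOCS2 were at the bottom. SOCS3 gave 3.21, 3.50 and 3.03 CPM against 6.51, 6.49 and 6.21 CPM, a log2 fold change of -0.98 (SE 0.102, edgeR adjusted p = 0.000533), and SOCS2 was at -0.96. CD274, which encodes PD-L1 (-0.81), the cytokine LIF (-0.41) and VEGFA (-0.40) were lower, and IL22RA1 (0.36), FOS (0.34), IFNGR1 (0.25) and MYC were higher. The list held 1 higher and 6 or 7 lower without ALDHbr replicate 2 or any 1 ALDHneg library, and 5 and 13 without ALDHbr replicate 1. None of 54 G2/M genes and none of 43 S phase genes passed, with medians of -0.01 and 0.01. With the length offset 1 gene of each was called lower. Without ALDHbr replicate 1, 5 G2/M genes were higher and 6 lower, and 5 S phase genes were higher and 3 lower. These counts were near or below the shares of all genes in that fit. Of 26 p53 targets, BTG2 was higher (0.61) and the cell cycle inhibitor CDKN1A (-0.30) and SESN2 (-0.39) were lower. These counts are of 1 and 2 genes, where 3.53% of all genes were higher and 3.91% lower. Without ALDHbr replicate 1 the counts were 4 and 3.

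Metabolic lists leaned in both directions. Of 25 cholesterol synthesis genes, 9 were called higher, against 3.53% over all genes, and none lower, with a median of 0.20. IDI1, which isomerises isopentenyl diphosphate, gave 70.0, 73.1 and 76.8 CPM against 54.7, 53.8 and 53.5 CPM (0.44), and SC5D, a late desaturase, gave 52.3, 51.3 and 50.9 CPM against 38.8, 38.2 and 37.4 CPM (0.43). Both were apart in all libraries. HMGCS1 (0.32), DHCR7 (0.31) and the feedback protein INSIG1 (0.22) were among the others. The count was 3 or 4 without 1 of the ALDHneg libraries, 5 without ALDHbr replicate 2, 12 or 13 without 1 of the other ALDHbr libraries and 14 with the length offset, with none lower in any of these. ATF4 targets, the genes of the integrated stress response, were lower for 10 of 33 and higher for 1, NUPR1 (1.28, below 3 CPM). The lower ones included the leucine transporter SLC7A5, with 1118, 1045 and 991 CPM against 1334, 1340 and 1320 CPM (-0.34), the stress kinase homolog TRIB3 (-0.24), DDIT4 (-0.28) and the serine synthesis enzyme PSAT1 (-0.20). The lower count was 3 without ALDHbr replicate 2 or any 1 ALDHneg library, and 19 without ALDHbr replicate 3 or with the offset. Of 38 glycolysis and hypoxia genes, 8 were lower, among them the lactate exporter SLC16A3 (-0.44), ENO2 (-0.49), NDRG1 (-0.33) and the glucose transporter SLC2A1 (-0.21). ADM and CA12 were higher, at 0.30 and 0.28, and each lost its call under at least 6 alternatives. Without ALDHbr replicate 2 or any 1 ALDHneg library this list held none higher and 4 lower, and with the offset it held 6 and 13.

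Genes of detoxification and stress were called in both directions. AKR1B10, an aldo-keto reductase that reduces aldehydes, was the NRF2 target with the greatest difference in CPM among those called, with 1552, 1615 and 1718 CPM against 1007, 979 and 976 CPM. Its log2 fold change was 0.72 (SE 0.0488, edgeR adjusted p = 6.09e-05), and the groups were far apart. ABCC2, an efflux pump, was higher by 0.75 and ABCC1 had a log2 fold change of -0.29, and these 3 were the called members of 34 NRF2 targets. That share is near the 7.44% of all genes called in either direction. Among 9 aryl hydrocarbon receptor targets 4 were higher, CYP1A1 (1.60, at 1.99 ± 0.269 against 0.653 ± 0.0877 CPM), CYP1B1 (0.43), UGT1A6 (0.38) and ALDH3A1, and SLC7A5 was lower. Of 12 ABC transporters ABCC2 and ABCG2 were higher, and ABCC1 and the cholesterol exporter ABCG1 (-0.70) were lower. The metallothioneins MT1X and MT2A, which bind zinc and copper, were lower at -0.61 and -0.55. Of 20 heat shock genes 5 were higher, led by HSPA6 (0.62) and HSPB1 (0.58), and none was lower. FOSB (0.93), BTG2, SPRY2 (0.36), FOS, JUN (0.33) and MYC were higher in the immediate early list, and 6 were lower, led by the phosphatases DUSP5 (-0.61) and DUSP4 (-0.45). Amino acid transporters had 3 of 21 higher and 5 lower, led by SLC7A2 (0.67), SLC43A1 (0.64) and SLC6A14 (-2.09, below 1 CPM). Among the smaller lists, 3 of 24 histone genes (H2BC5, H2BC8 and H2BC12), 2 of 24 genes of the unfolded protein response (CRELD2 and CALR), 2 of 9 claudins (CLDN2 and CLDN1) and 1 of 18 BCL2 family genes (BCL2L14) were higher, and none was lower. The last of these is 1 gene, at a share near the 3.53% called higher over all genes, and BCL2L14 lost its call under 3 alternatives. Without ALDHbr replicate 2 or any 1 ALDHneg library, the heat shock count was 2 or 3, the immediate early counts were 3 higher and 3 or 4 lower, the amino acid transporters had 1 or 2 higher and 2 lower, and the unfolded protein response had none called. In the same fits the metallothioneins had 1 or 2 lower, the claudins 1 higher and the histones 1 or 2 higher. Aryl hydrocarbon receptor targets had 2 or 3 higher and 1 lower. ABC transporters had 2 higher and 1 lower, and the NRF2 list 2 higher and none lower. Without ALDHbr replicate 1 the unfolded protein response held 9 higher and 5 lower and the NRF2 list 9 and 4. In that fit 1327 of 13735 genes were higher and 1649 lower. The NRF2 list instead held 3 higher and 5 lower without ALDHbr replicate 3, where 763 of 13731 genes were higher and 920 lower. With the length offset it held 4 higher and 7 lower, where 7.48% of all genes were higher and 7.8% lower.

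**Figure D3:**
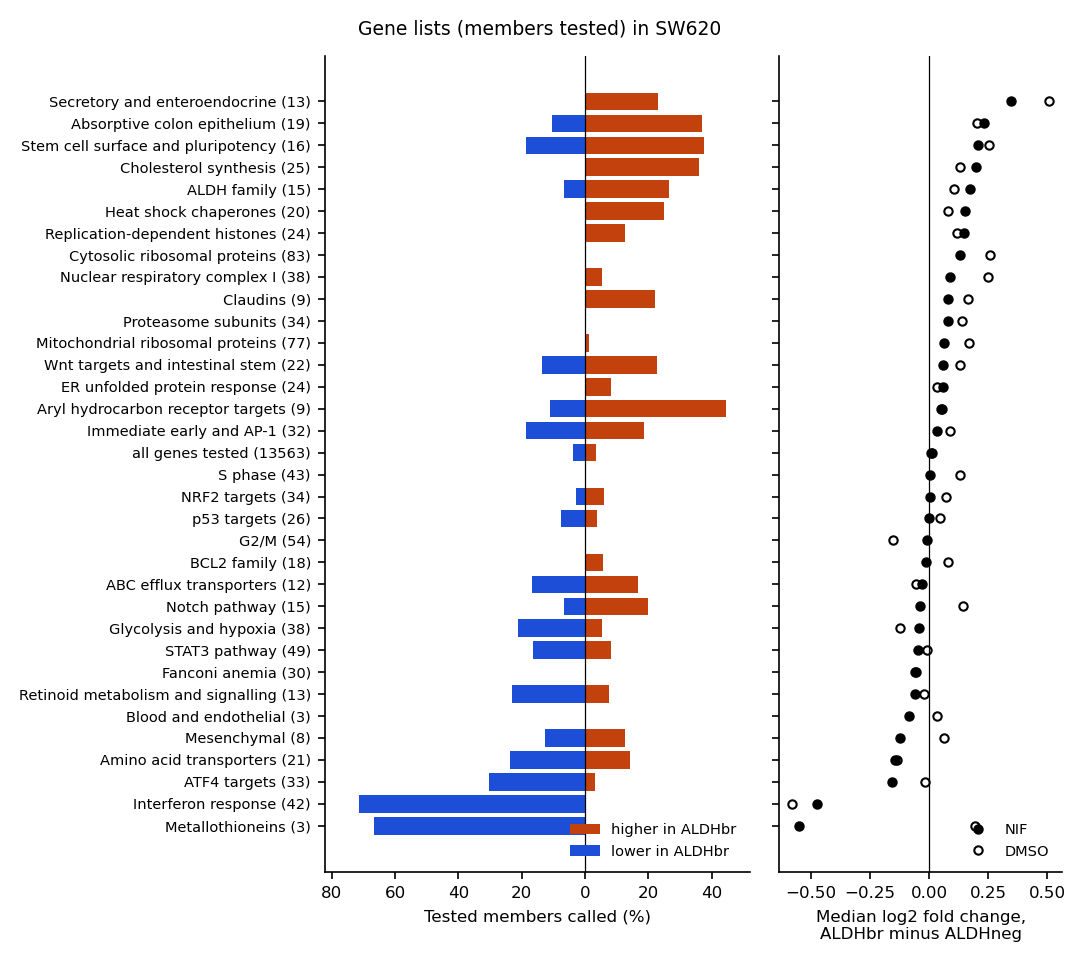
For each gene list, with the number of members tested in brackets, the left panel gives the percent of members called higher (right of 0) and lower (left of 0) in ALDHbr cells under NIF, and the right panel the median log2 fold change under NIF and DMSO. The interferon response reaches 30 of 42 lower, the metallothionein row rests on 3 genes, and the row of all 13563 genes tested lies near 0.

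The genes with the greatest difference in mean CPM toward ALDHneg cells encode very large proteins of the cytoskeleton. FLNA, an actin cross-linker, gave 2766, 2561 and 2211 CPM in ALDHbr cells against 3564, 3538 and 3563 CPM (-0.50 on the log2 scale, SE 0.0721, edgeR adjusted p = 0.00297). PLEC, which links intermediate filaments to junctions, gave 2235, 2184 and 1845 CPM against 2846, 2797 and 2814 CPM (-0.43). AHNAK was at -0.58. In all 3, ALDHbr replicate 3 was the lowest library, the one in which long transcripts were lowest as a class, and the canonical transcripts of the 3 are between 8507 and 18761 bases long. With the length offset the log2 fold changes moved to -0.37 for FLNA, -0.21 for PLEC and -0.33 for AHNAK, and each passed (edgeR adjusted p = 0.00342 for PLEC, the highest of the 3). The lysosomal protease CTSD (-0.28), whose transcript is short, moved to -0.32. Cytosolic ribosomal protein genes, which have short transcripts, were the reverse. None of 83 was called, but 82 estimates were above 0, with a median of 0.13, and the summed level was 62390, 68740 and 76610 CPM in the ALDHbr libraries against 62630, 64160 and 62670 CPM. ALDHbr replicate 1 overlapped the ALDHneg range and replicate 3 lay furthest above it. Without ALDHbr replicate 1, 58 of the 83 were called higher, where 9.66% of all genes were, and with the length offset 14 were, with a median of 0.06. The nuclear genes of respiratory complex I, with 2 of 38 called higher (NDUFC2 and NDUFB9), reached 16 without that library and 6 with the offset. Over all genes 3.53% were higher with all libraries, 9.66% without that library and 7.48% with the offset. Mitochondrial ribosomal genes had 1 of 77 higher (MRPL16), and none of 34 proteasome genes passed, but 16 and 11 were higher without ALDHbr replicate 1. The higher genes of greatest CPM difference beside AKR1B10 and ALDH1A1 were HSPA8 (0.17), EEF1G (0.26), LDHB (0.29) and PPIB (0.26), and each of these 4 lost its call when any 1 of the ALDHneg libraries was left out. Whether the length trend comes from the cells or from library preparation was not tested.

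The last comparison asked whether these differences were also seen under DMSO. The paper reports that NIF lowers the proportion of ALDHbr cells, so the gates under NIF and DMSO need not hold the same cells. A response to the drug and a shift of cells between the gates cannot be told apart here. Under DMSO, 1577 of 13953 genes tested (11.3%) differed between the populations. NIF and DMSO libraries are separate samples, but the DMSO calls came from the 12-library fit, which also held the NIF libraries. The 2 sets of calls are therefore not independent. The DMSO count was 1142 without ALDHbr NIF replicate 2 and 2236 without ALDHbr NIF replicate 3. Of the 1009 genes called under NIF, 980 (97.1%) had the same direction under DMSO and 635 were called there in that direction. Of all genes tested, 76.1% had the same direction. The 479 higher genes had a median log2 fold change of 0.43 under NIF and 0.34 under DMSO, and the 530 lower genes -0.39 and -0.37. Single genes were more and less alike. IHH was at 1.43 under NIF and 1.40 under DMSO, PADI1 at -1.83 and -1.66, IFI6 at -1.71 and -1.66 and ALDH1A1 at 0.79 and 0.55. The estimates were further apart for LGR5, at 1.33 and 0.56, TXNIP, at 1.05 and 0.44, SBSPON, at 1.02 and 0.35, and ZNF469, at -1.32 and -0.25. None of these 4 passed the test of the difference in the 12-library fit. Without ALDHbr DMSO replicate 2, LGR5 (0.85, edgeR adjusted p = 0.04595) and TXNIP (0.63, edgeR adjusted p = 0.0434) passed, and SBSPON and ZNF469 did not. MT1X was the single gene called in opposite directions, at -0.61 under NIF and 0.64 under DMSO.

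In the test of the difference between the NIF and DMSO comparisons, 1 of 13953 genes (0.00717%) passed. It was CLDN2, at chrX:106900164-106930861, and 771 genes had an unadjusted p below 0.05. On the scale of the 12 SW620 libraries, CLDN2 stood at 157, 161 and 170 CPM in ALDHbr cells under DMSO and at 127, 122 and 120 CPM in ALDHneg cells under DMSO. Under NIF, on the same scale, it stood at 53.6 ± 0.673 CPM in ALDHbr and 24.3 ± 0.332 CPM in ALDHneg cells (SD, n = 3). All NIF libraries were below all DMSO libraries, and within each treatment ALDHbr was above ALDHneg. The log2 difference between populations was 1.14 under NIF and 0.41 under DMSO, and the difference of these was 0.73 (SE 0.0702, edgeR adjusted p = 0.000936). It stayed between 0.71 and 0.77 and passed under each alternative run for it.

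This count depended on 1 library and on transcript length. Without ALDHbr DMSO replicate 2, which lay furthest from its group (median absolute log2 difference 0.202), 27 genes passed (0.191%), and with the length offset 32 did (0.229%). Of these 32, 20 also passed without that library, among them KRT17 (interaction with the offset -1.25, edgeR adjusted p = 0.00378), MT1X (-1.09), TXNIP (0.61), IFIT1 (0.62), CYP1B1 (0.58) and ALDH1A3 (0.40). ALDH1A3 had a log2 difference of 0.05 under NIF and -0.36 under DMSO, and KRT17, a keratin of stressed epithelium, had -0.30 under NIF and 1.00 under DMSO. ALDH3A1 (0.42, edgeR adjusted p = 0.00378) and ALDH1A1 (0.28, edgeR adjusted p = 0.0299) passed with the offset. Neither passed in the 12-library fit without the offset, or with ALDHbr DMSO replicate 2 left out. Both had the larger log2 difference under NIF. In the fit without the offset their adjusted p by edgeR was 0.55 and 0.498. On the scale shared by the NIF and DMSO libraries, ALDH1A1 had means of 954.7 CPM in ALDHbr and 548.9 CPM in ALDHneg cells under NIF. Under DMSO the means were 1314 and 900.5 CPM. In CPM the gap for ALDH1A1 was thus not wider under NIF, and its interaction is one of ratios. The genes in this paragraph other than those already named were chosen after their values were seen.

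**Figure D4:**
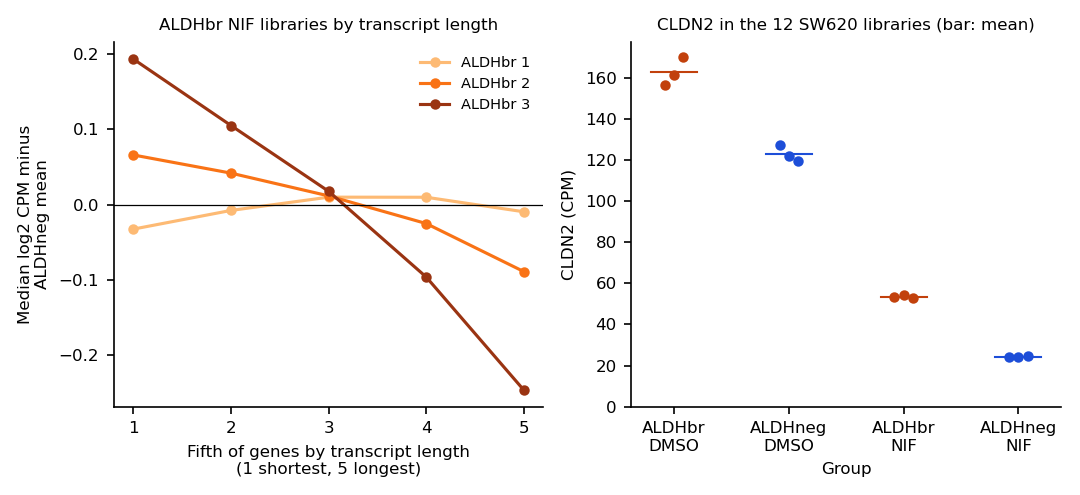
Left, the median log2 CPM of each ALDHbr NIF library minus the ALDHneg NIF mean, for genes in 5 groups of transcript length, where replicate 3 runs from 0.19 to -0.25 and replicate 1 stays within 0.04 of 0. Right, CLDN2 in the 12 SW620 libraries in CPM, with a bar at the mean of each group of 3.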

How the data were processed

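Raw read counts per gene, with no normalization, were deposited by the authors in a single table of 28307 genes and 24 libraries (Illumina Stranded Total RNA Prep). The submitters' processing notes name FastQC, STAR and GRCh38. The counting tool, the annotation and the handling of shared reads are not given in the sources used here, so genes with near-identical copies or overlaps are uncertain. Groups came from the sample labels. Columns of per-sample values that could not be mapped numbered 0, and 8721 genes had no count in the 6 libraries.

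The 6 SW620 NIF libraries were fitted, unpaired, with edgeR 4.0.16 in R 4.3.3, after filterByExpr by group and TMM normalization. The quasi-likelihood F test was adjusted by Benjamini-Hochberg over 13563 genes, at a threshold of 0.05 with no minimum fold. The study's methods name no test for differential expression between these libraries. The DMSO difference and the interaction came from a fit of the 12 SW620 libraries. Printed CPM are scaled by TMM-adjusted library size. An SE is the log2 fold change over the square root of F. SD values are over 3 libraries. p-values cover the spread between 3 independent experiments. Counts per library reached 30253187 to 43127948, so errors of the CPM of abundant genes are set by the replicates and not by depth. Replicate pairs differed by more than sampling noise (chi-square per gene 1.97 to 46.1).

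The members were chosen from the sample labels alone. The gene lists were written with earlier results of these data known, so lists are described by counts and medians. The list of mitochondrially encoded genes was not analysed here, and some called genes are not reported here. Named were the ALDH family, STAT3, FANCI and FANCD2, the 12 highest and 12 lowest log2 fold changes among called genes whose groups did not overlap and whose mean log2 CPM reached 1, the 6 called genes with the greatest CPM difference in each direction, up to 2 called genes from each end of every list, and genes called in the interaction. Further called members of lists were named after their values were seen. The cell cycle lists (G2/M, S phase) were taken from Seurat 5.3.0.

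Gene positions and promoters were matched by Entrez number to RefSeq (GRCh38.p14), which held 13459 of the genes tested. Transcript lengths are those of canonical GENCODE transcripts, known for 12889 genes (95%), and the offset is a loess curve (span 0.5) of log2 CPM on log2 length per library. On simulated counts with 200 genes changed by a log2 value of 1, the NIF test recovered 183 among 13441 genes with 14 false calls. The same test with the length offset recovered 183 with 16, and the interaction test 161 among 13771 genes with 8. The simulated counts held no length trend and no library set further from its group than the others. They therefore do not bear on the calls gained with the offset or on the dependence on single libraries. The alternatives were DESeq2 1.42.0, RLE and library-size scaling, other filters, fits of 12 and 24 libraries, a replicate block, a minimum fold, leaving out each library and the length offset.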

Additional observations from a re-analysis of the deposited data

Results flagged for a closer look

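CLDN2 was the single gene whose difference between ALDHbr and ALDHneg cells differed between NIF and DMSO in the 12-library fit. The log2 difference was 1.14 under NIF and 0.41 under DMSO, and the difference between these was 0.73 (SE 0.0702, edgeR adjusted p = 0.000936, with every ALDHbr library above every ALDHneg library under both treatments). Its level was 163 ± 6.67 CPM under DMSO and 53.6 ± 0.673 CPM under NIF in ALDHbr cells, and 123 ± 3.89 and 24.3 ± 0.332 CPM in ALDHneg cells (SD, n = 3); the difference between treatments was not tested here. In CPM the gap between populations was thus not wider under NIF, and the interaction is one of ratios.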

How the results depend on the processing

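The count of 1009 genes under NIF depended on single libraries. It ranged from 392 to 2976 when 1 library was left out, with 2976 without ALDHbr replicate 1, 1683 without ALDHbr replicate 3, 414 without ALDHbr replicate 2 and 392 to 428 without an ALDHneg library. It was 659 in the fit of all 24 libraries, 120 with an absolute log2 fold change of at least 1 and 2072 with the transcript-length offset. DESeq2 gave 1323 genes, RLE 996, library-size scaling 1024, no filter 1393, at least 10 counts in every library 957 and the 12-library fit 931.

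The interaction count of 1 was 29 with DESeq2, 4 with library-size scaling, 4 without a filter, 2 with the replicate block and 32 with the length offset, and 1 to 27 with a library left out. The DMSO count of 1577 ran from 712 to 5487 with a library left out, the last without ALDHbr DMSO replicate 2.

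Of 115 named genes 102 were called. None of the 102 changed direction. Apart from the minimum fold, which 35 reached, 58 kept their call under each alternative run and 44 lost it under at least 1. ALDH4A1 and STAT3, which were not called, changed sign: ALDH4A1 to 0.0007 and STAT3 to 0.0041 with library-size scaling, and STAT3 to 0.0324 with the length offset. With a library left out ALDH4A1 ran from -0.0448 to 0.0027 and STAT3 from -0.0491 to 0.0473. The G2/M median of -0.01 turned to 0.01 with library-size scaling. The causes were not tested.

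Same-numbered libraries did not deviate together (correlations 0.0415, -0.0474 and -0.114), so the numbers were not taken to pair the samples. With the replicate block 945 genes were called, 797 of them shared with the 1009.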

Other observations

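Some families outside the lists above, chosen after their values were seen, also differed under NIF. Of 16 genes of HLA class I antigen presentation tested, 7 were lower in ALDHbr cells and none higher, where 3.91% of all genes were lower. Their median was -0.29 on the log2 scale, beside 0.006 over all genes. HLA-B, which presents peptides to T cells, gave 30.5, 32.7 and 36.8 CPM in ALDHbr and 62.4, 63.3 and 60.8 CPM in ALDHneg cells (-0.90, SE 0.0699, edgeR adjusted p = 0.000134). The peptide transporter TAP1 was at -0.72 and the immunoproteasome subunit PSMB8 at -0.62. B2M, the shared light chain, was at -0.18 and did not pass. With the length offset 12 of the 16 were lower, against 7.8% of all genes.

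Laminin and integrin genes were also counted, where 3.53% of all genes were higher and 3.91% lower. Of 8 laminin genes 4 were lower, among them LAMA3 (-0.46) and LAMB3 (-0.41), and LAMB1 was higher (0.21). Of 13 integrin genes 5 were lower, including ITGA6, ITGB4 (-0.27) and ITGA3 (-0.39), and none was higher. With the length offset both counts of lower genes were the same, and 1 integrin gene was higher. TGM2, a transglutaminase that crosslinks matrix proteins, gave 101, 98.2 and 93.2 CPM against 185, 195 and 196 CPM (-0.98). Of 21 actin cross-linkers, plakins and related large proteins 10 were lower, and 14 with the offset, where 7.8% of all genes were lower. Other families counted were more even. Keratins had 2 of 16 higher and 2 lower, serpins 3 of 16 higher and 3 lower, and mucins 2 of 10 higher and 1 lower. Aldo-keto reductases had 2 of 11 higher and none lower.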
